A study of Mus musculus with 6 samples.

Results

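The brightest circular RNA (circRNA) probes of an array hybridised with RNA of mouse cortex were described on 6 arrays. The 100 probes were selected on their measured signal: a probe had to be well above background on all 6 arrays, and the 100 with the highest mean level over those arrays were taken. They are 100 of 1797 circRNA probes on the array and 100 of the 1072 that were well above background on every array. The levels and ranks below were therefore fixed by the selection and are given as a description, with no test. The difference between the 2 surgical groups was not part of the selection. A high level on some arrays raises the mean, however, so a probe could enter through those arrays.

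All mice were adult C57BL/6J males. In 3 of them the middle cerebral artery was blocked by a silicone-rubber-coated filament for 1 h, and the ipsilateral cortex was taken when blood had flowed again for 12 h (the tMCAO group, for transient middle cerebral artery occlusion). The 3 sham mice were operated on with no filament, and their labels carry the same 12 h time. Each array held RNA from 1 mouse, so the spread between arrays includes that between animals. Bulk cortex was extracted, so fewer cells of a type and less circRNA per cell cannot be told apart.

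A circRNA is a closed loop that forms when a downstream splice donor joins an upstream acceptor, a reaction called back-splicing. With no free ends, circRNAs resist exonucleases such as RNase R, which was used here to digest linear RNA before labelling, and they are long-lived in cells. Brain is rich in them, many come from genes of synaptic proteins, and a few, such as the microRNA-binding Cdr1as, are far more abundant there than most. Probes of such arrays are designed against the back-splice junction, so that the linear transcript of the host gene is not read. The files used here give each probe as a number alone, without its sequence, host gene or position, so that the circRNAs are named by probe below and none can be assigned to a gene.

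A level is the log2 processed intensity minus the 75th percentile of the circRNA probes on the same array. A level of 0 is that percentile, and a step of 1 is a doubling of signal. Signal also depends on how well a given probe binds and labels, so the order of the probes is an order of brightness and not of RNA copies. Array brightness varied, with 75th percentiles of 6.17 to 7.37 on the log2 scale and 1089 to 1444 circRNA probes detected per array. With 3 arrays per group, precision is limited by their number. Of 47 marker genes of cortical and neighbouring cell types, 5 had an mRNA probe. After digestion, the astrocyte gene Apoe and the oligodendrocyte gene Mbp were detected on all 6 arrays, the GABA-A receptor subunit gene Gabrg1 on 5, the T cell cytokine gene Il2 on 4 and the neuronal channel gene Kcnn2 on 0. The tissue label could thus be checked against few markers only.

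Signal was concentrated in a handful of circRNAs. The brightest 6 probes had mean levels of 8.59 to 10.6, and a gap of 2.25 on the log2 scale separated the sixth from the seventh. Below them, 11 had a mean of at least 5, 52 lay between 3 and 5, and 31 were under 3. ASCRMP000703 was the brightest, at 10.13, 10.78 and 11.03 in tMCAO and 10.55, 10.49 and 10.50 in sham. Its processed intensity was between 147552 and 203018. The sham arrays agreed closely here (SD 0.030, n = 3), while the tMCAO arrays spread to both sides of them (SD 0.464).

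ASCRMP000083 followed, at 9.82, 10.37 and 10.47 in tMCAO and 9.82, 9.80 and 10.11 in sham. ASCRMP001374 was at 9.42, 9.99 and 10.32 in tMCAO and 9.69, 9.64 and 9.94 in sham. ASCRMP000511 was at 9.45, 10.07 and 10.37 in tMCAO and 9.51, 9.65 and 9.93 in sham. In each of these circRNAs, and in ASCRMP001180 (mean level 8.94), tMCAO 1 was the lowest of the tMCAO arrays, and the groups overlapped. ASCRMP001051, the sixth, ran differently, at 8.94, 9.14 and 8.21 in tMCAO and 8.88, 8.91 and 7.48 in sham, so that sham 3 and tMCAO 3 were its lowest arrays.

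The 100 probes together held 82.8 to 88.1% of all circRNA signal on an array, taken as the sum of linear intensity over circRNA probes. The tMCAO arrays averaged 86.1 ± 2.9% (SD, n = 3) and the sham arrays 84.7 ± 0.59%. An exact two-sided permutation test over arrays gave p = 0.4, and with 3 arrays against 3 it cannot go below 0.1. The leading 6 alone held 61.5, 68.5 and 71.2% in tMCAO and 57.0, 59.4 and 64.3% in sham. The other 94 held 21.3, 18.8 and 16.9% in tMCAO and 27.1, 25.1 and 21.1% in sham. For both shares the groups overlapped, by 1 array of each (exact permutation test, two-sided, p = 0.2 for each). ASCRMP000703 alone held 16.1 to 21.2% of the signal of an array. No member spot was saturated: the brightest circRNA spot on any array read 209190, against a saturation value of 778347.

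At the lower edge the selection separated nearly equal probes. The last 3 inside were ASCRMP000723 at a mean of 2.49, ASCRMP001402 at 2.48 and ASCRMP000025 at 2.48, and the first 3 outside were ASCRMP001691 at 2.47, ASCRMP000433 at 2.47 and ASCRMP001291 at 2.46. On each single array, 84 to 93 of the 100 were among that array's own 100 brightest, and 69 were so on every array. The 31 others all ranked below the first 50 by mean. The farthest fall was that of ASCRMP001402, which ranked between 59 and 257. Even the dimmest reading was clear of background: the lowest ratio of median spot signal to local background for any member on any array was 10.3.

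Each probe was printed as 7 spots, and the spots agreed closely. The SD over the spots of 1 probe on 1 array had a median of 0.037 on the log2 scale over the 100 circRNAs, against 0.074 over the 972 other circRNAs detected on every array. The spread between arrays of a group, which holds differences between mice together with labelling and hybridisation, was larger. The mean of the SDs within the 2 groups had a median of 0.29, which is 7.92 times the median spot SD, and lay between 0.062 and 1.01. The 972 others had a nearly equal median of 0.275, so the bright probes had less spot error but a like spread between arrays.

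The steadiest circRNAs differed little between arrays of a group. ASCRMP000602 was at 4.81, 4.84 and 4.72 in tMCAO and 5.04, 4.94 and 4.91 in sham. ASCRMP000647 was at 4.32, 4.37 and 4.32 in tMCAO and 4.81, 4.75 and 4.57 in sham. ASCRMP001644 was at 2.61, 2.62 and 2.74 in tMCAO and 2.84, 2.79 and 2.95 in sham. In these, as in ASCRMP001772 (SD 0.063 in tMCAO and 0.135 in sham), every tMCAO value lay below every sham value, yet the differences of -0.175, -0.37, -0.21 and -0.33 had adjusted p-values of 0.700, 0.604, 0.646 and 0.604 in limma. For ASCRMP000602 and ASCRMP001772 the sign turned under quantile normalization, to 0.177 and 0.038. ASCRMP001007, the other of the 5 steadiest, averaged 4.08 in tMCAO and 4.14 in sham.

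Setting the tMCAO arrays against the sham arrays asks which abundant circRNAs differ in cortex after a stroke. None of the 100 had an adjusted p under 0.05 in limma (0 members, and 0% of the 1307 circRNAs tested). Without adjustment, 14 members had p under 0.05. Of these, 11 were lower in tMCAO, where 3.29% of all tested circRNAs were, and 3 were higher, where 3.75% of all tested were. The 14 kept their direction under all 21 alternative settings. Some of these settings leave every difference as it is, so no change of sign could arise there. With normexp background correction, 7 members were higher with an unadjusted p under 0.05 in limma, against 1.38% of all tested. On the lower side there were 0, against 2.91%. Every tMCAO array lay below every sham array for 18 members, against 5.51% of all tested, and above for 4, against 6.5%. Of the 100, 64 averaged lower, against 47.1% of all tested, and the median difference (tMCAO minus sham, log2) was -0.175, against 0.03 over all tested.

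Relative to all tested circRNAs, the members' median was lower by 0.201 on the log2 scale (members minus all tested, -0.201). Scaling each array by another constant moves every probe alike and leaves that value as it is. It did change the counts: with the 75th percentile taken from probes detected on every array, 10 members lay wholly below sham, against 2.37% of all tested, and 6 wholly above, against 13.6%. Methods that act on each probe's intensity gave other values. With normexp background correction the members' median was 0.091 above that of all tested, 0 members lay wholly below sham, against 5.2% of all tested, and 12 wholly above, against 5.28%. With quantile normalization it was 0.027 above, with 5 members wholly below, against 4.21%, and 6 wholly above, against 6.2%. The position of the members relative to all tested circRNAs thus kept its sign under constant scalings and changed it under normexp and quantile normalization. Before any scaling, the 100 had a mean log2 intensity of 10.7 ± 0.53 on tMCAO arrays (SD, n = 3) and 11.2 ± 0.37 on sham arrays (p = 0.3, exact permutation test).

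The brightest 6 each averaged higher in tMCAO, by 0.14 to 0.34, within the spread of their arrays. Their differences were 0.14 ± 0.26 (SE) for ASCRMP000703, 0.31 ± 0.24 for ASCRMP000083, 0.15 ± 0.27 for ASCRMP001374, 0.27 ± 0.28 for ASCRMP000511, 0.22 ± 0.25 for ASCRMP001180 and 0.34 ± 0.43 for ASCRMP001051, with adjusted p-values of 0.625 to 0.839 in limma. Under quantile normalization ASCRMP001374 and ASCRMP001051 averaged lower instead, at -0.041 and -0.191. That method gives probes of the same rank the same value on every array. ASCRMP001374 and ASCRMP000511 held only ranks 3 and 4, and ASCRMP001180 and ASCRMP001051 only ranks 5 and 6. Their signs there therefore follow from exchanged ranks and cannot decide the direction. Among the next 4, ASCRMP001599 and ASCRMP001685 averaged higher by 0.34 ± 0.31 and 0.23 ± 0.28, with overlapping groups. ASCRMP000278 and ASCRMP000912 averaged lower by 0.68 and 0.43 with no overlap.

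ASCRMP000278 was at 5.95, 6.03 and 6.03 in tMCAO and 7.14, 6.79 and 6.11 in sham. The tMCAO arrays agreed closely (SD 0.045), and the difference of -0.68 ± 0.28 (SE, limma unadjusted p = 0.0430, adjusted p = 0.604) came mainly from sham 1 and sham 2, since sham 3 lay 0.077 above tMCAO 3. ASCRMP001196 was more evenly placed, at 2.96, 2.96 and 3.28 in tMCAO and 3.87, 3.73 and 3.53 in sham. Its difference was -0.65 ± 0.20 (unadjusted p = 0.0134, adjusted p = 0.604 in limma), with a range of -0.908 to -0.418 over the alternatives.

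The other lower members with no overlap and the widest gaps in means were ASCRMP001588, ASCRMP000707 and ASCRMP001033. ASCRMP001588 was at 2.13, 2.04 and 2.39 in tMCAO and 3.33, 2.91 and 2.43 in sham, a difference of -0.70 ± 0.27. Only its sham 1 and sham 2 readings lay above the edge of the selection, a mean of 2.48, so it entered through them. ASCRMP000707 was at 2.88, 2.09 and 3.0 in tMCAO and 3.31, 3.14 and 3.31 in sham, a difference of -0.60 ± 0.27. Its tMCAO mean was pulled down by tMCAO 2. ASCRMP001033 was at 1.95, 2.61 and 2.47 in tMCAO and 3.04, 2.94 and 2.75 in sham, a difference of -0.57 ± 0.23. Each had an adjusted p of 0.604 in limma. Of the 18 members wholly below sham, 4 differed by at least 1.5-fold, and 14 kept their sign under every alternative.

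ASCRMP001402 had the widest difference upwards among the 100, at 3.10, 3.44 and 3.14 in tMCAO and 1.27, 1.49 and 2.44 in sham. The difference of 1.49 ± 0.32 (SE) had an unadjusted p of 0.00193 and an adjusted p of 0.604 in limma, and lay between 1.23 and 1.89 over the alternatives. By mean level this circRNA is 99 in the list, but 59 and 257 were its best and worst ranks on single arrays. Every sham value lay under the edge of the selection, a mean of 2.48, so it entered through its tMCAO values. ASCRMP000961 was at 2.90, 3.21 and 2.58 in tMCAO and 2.0, 1.94 and 2.57 in sham, a difference of 0.73 ± 0.26 with tMCAO 3 and sham 3 only 0.018 apart. ASCRMP000036 was at 4.55, 5.16 and 4.41 in tMCAO and 3.52, 3.57 and 4.43 in sham, so that sham 3 reached into the tMCAO values. Its difference was 0.87 ± 0.32 (adjusted p = 0.604 in limma).

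The remaining higher members with no overlap differed by little. ASCRMP001481 was at 4.72, 5.11 and 4.77 in tMCAO and 4.52, 4.57 and 4.71 in sham, a difference of 0.27 ± 0.20. ASCRMP000762 was at 3.07, 2.69 and 2.71 in tMCAO and 2.63, 2.45 and 2.65 in sham, a difference of 0.25 ± 0.20. Adjusted p-values were 0.625 and 0.628 in limma. Of all 22 members with no overlap, 12 differed by less than 0.5 on the log2 scale.

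A set of abundant circRNAs was high on sham 1 and sham 2 and low on the other 4 arrays. In 12 of the 100, both of these sham arrays lay at least 1 above every other array, a pattern seen in 3.21% of all tested circRNAs and the reverse was seen in 0 members, against 0.23% of all tested. The pattern was picked after the values were seen and is given without a test. High readings on sham 1 and sham 2 also raise the mean used for the selection, which can add to the number of such members. ASCRMP000458 was the clearest, at 1.56, 2.39 and 2.10 in tMCAO and 4.68, 4.23 and 2.08 in sham. Its readings outside sham 1 and sham 2 were all under the edge of the selection, a mean of 2.48. ASCRMP001633 was at 3.63, 4.18 and 3.99 in tMCAO and 6.44, 5.92 and 4.11 in sham. ASCRMP001783 was at 3.85, 4.35 and 3.74 in tMCAO and 6.12, 5.89 and 3.45 in sham. In processed intensity, ASCRMP001633 read 2055, 1572 and 1143 in tMCAO and 11806, 7808 and 1766 in sham, so the contrast within the sham group was there before scaling.

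Across these 12 the median level was 5.24 on sham 1 and 4.77 on sham 2, and 3.0, 3.52, 3.06 and 3.12 on tMCAO 1, 2, 3 and sham 3. The other 88 had medians between 3.63 and 3.85 on every array. Over these 88 the median difference (tMCAO minus sham, log2) was -0.093, against -0.175 over the 100, with 52 lower and 36 higher. The 12 left out were picked for high sham readings, so part of that step follows from the choice. For 8 of the 12, sham 3 lay inside the range of the tMCAO arrays, and for the other 4 below it. Their sham SDs ran from 1.04 to 1.48, against tMCAO SDs of 0.27 to 0.46. With sham 3 so far from the other sham arrays, the differences of -1.65 to -0.95 carried standard errors of 0.49 to 0.66, and 5 of the 12 had an unadjusted p under 0.05 in limma. Members with the pattern numbered 12 with normexp, against 1.99% of all tested, and 7 with quantile normalization, against 2.6%.

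The most variable of the 100 were largely of this kind. Of the 5 with the largest SD within groups, ASCRMP000458, ASCRMP001783, ASCRMP001727 and ASCRMP001281 belonged to the 12. ASCRMP001727 was at 3.56, 4.13 and 3.33 in tMCAO and 5.71, 5.30 and 3.25 in sham. ASCRMP001281 was at 1.68, 2.52 and 1.78 in tMCAO and 4.01, 3.61 and 1.73 in sham. ASCRMP000141, the fifth, differed in that tMCAO 2 was also raised, at 4.76 against 3.16 and 3.66 on the other tMCAO arrays, with 5.79, 5.45 and 3.55 in sham.

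The 12 also differed in the agreement between the spots of a probe, which was not itself a criterion of their choice. Spots unlike the probe's other spots had been dropped before levels were averaged, however. The choice was therefore not independent of spot agreement. The median spot SD of the 12 was 0.086, against 0.035 for the other 88, with similar mean levels over all arrays (medians of 3.75 and 3.71). Levels were not matched on single arrays. On tMCAO 1, 2, 3 and sham 3 the 12 were dimmer, with medians of 3.0 to 3.52 against 3.63 to 3.77. On sham 1 and sham 2, where they were brighter, their median spot SDs were 0.067 and 0.081, against 0.028 and 0.037. Of the 15 members whose spot SD passed 0.1 on some array, 9 were among the 12. In ASCRMP000835 the spot SD was 0.332, 0.239 and 0.393 in tMCAO and 0.0943, 0.161 and 0.479 in sham, lowest where the circRNA was brightest. Its levels were 2.18, 2.88 and 2.52 in tMCAO and 4.83, 4.30 and 2.68 in sham. ASCRMP000817 and ASCRMP000408 were alike in level, with differences of -1.26 ± 0.49 and -1.35 ± 0.53 (adjusted p = 0.604 for each in limma). All of these spot SDs are below the steps of over 1 between the sham arrays.

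Among the mRNA probes of marker genes, Apoe and Gabrg1 had their 2 highest readings on the same sham arrays. Apoe was at 1.20, 1.24 and 0.51 in sham and -0.024, 0.45 and 0.53 in tMCAO. Gabrg1 was at -0.92, -1.53 and -2.50 in sham and -2.52, -2.24 and -2.78 in tMCAO. Mbp did not share this, at -1.46, -1.72 and -1.03 in sham and -1.49, -1.64 and -1.15 in tMCAO, and Il2 was at -2.04, -2.18 and -3.27 in sham and -3.09, -2.13 and -3.0 in tMCAO. Whether linear RNA left after digestion has a part in the levels of the 12 was not tested.

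Over all 100, sham 3 was nearer to the tMCAO mean than to the mean of the other sham arrays for 75 members, a share near the 72% of all tested circRNAs. The correlation of levels over the 94 circRNAs below the leading 6 was 0.984 between sham 3 and tMCAO 3. Sham 3 correlated at 0.931 and 0.904 with tMCAO 1 and tMCAO 2, and at 0.643 and 0.743 with the other sham arrays. These correlations run over probes of shared brightness and describe the arrays, not the groups. The array positions in the headers place sham 3 and tMCAO 3 in row 2 and the other 4 arrays in row 1. Within row 1 the median difference was -0.162 over the members and 0.076 over all tested. There 0 members had an adjusted p under 0.05 (limma, 2 arrays per group). Without adjustment 27 members were lower with p under 0.05, against 12.9% of all tested, and 5 higher, against 8.19%. The single pair of row 2 had a median difference of -0.038 over the members, the same as over all tested (-0.038), and gave no test. For ASCRMP000458 the difference was -2.48 within row 1 and 0.017 in row 2, and for ASCRMP001402 it was 1.89 and 0.70. With row as a block in limma, 18 members were lower with an unadjusted p under 0.05, against 6.04% of all tested, 3 were higher, against 4.21%, and 0 had an adjusted p under 0.05.

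Leaving out sham 3 changed the calls. In the fit without it, 15 members were lower in tMCAO with an adjusted p under 0.05 in limma, against 6.35% of all tested circRNAs, and 2 were higher, against 2.22%. The 2 higher were ASCRMP001402, by 1.85 ± 0.21 (adjusted p = 0.0117), and ASCRMP000036, by 1.16 ± 0.27 (adjusted p = 0.0420). In both, sham 3 was the sham array nearest to the tMCAO values, at 2.44 and 4.43. Their passing once it is left out is thus no separate support. The 15 lower held all 12 of the set high on sham 1 and sham 2, which had been picked for a low sham 3, so their passing is no separate support. They also held ASCRMP000278 at -0.964 (adjusted p = 0.0352), ASCRMP000471 at -1.37 and ASCRMP000820 at -1.42. In these too, sham 1 and sham 2 lay above every other array, by at least 0.683, 0.847 and 0.761. They fell short only of the gap of 1 that marks the set, so their passing is no separate support either. None of the other single-array omissions gave an adjusted call among the 100 (0 members each in limma). Members with an unadjusted p under 0.05 in limma numbered 1 to 7 there, against 1.76 to 5.2% of all tested. Leaving out tMCAO 1 gave 1 lower (1.68% of all tested) and 4 higher (3.52%). Without tMCAO 2 there were 6 lower (1.84%) and 1 higher (2.52%), and without tMCAO 3, 4 lower (2.14%) and 3 higher (2.91%). Without sham 1 there were 0 lower (0.765%) and 1 higher (0.995%), and without sham 2, 1 lower (0.689%) and 1 higher (1.3%). Whether sham 3 carries the wrong label was not tested, and it was kept as labelled.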

How the data were processed

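RNA of 3 tMCAO and 3 sham cortices was digested with RNase R, amplified by random priming, labelled with Cy3 and hybridised to 1-colour arrays, per the labels' protocols. The authors deposited linear intensity per spot, made with Agilent Feature Extraction 11.0.1.1, which had subtracted background and removed spatial trend without scaling one array to another, per the file headers. All 6 arrays were read in 1 scan. Outlier spots (non-uniform or unlike the probe's other spots) were dropped, the log2 intensities of the rest were averaged by probe, and the 75th percentile of circRNA probes was subtracted per array. Detection required more than 0.5 of the spots kept to be well above background. Probes detected on at least 3 arrays (1307) entered limma 3.58.1 under R 4.3.3 (lmFit, eBayes, group as sole term, two-sided, Benjamini-Hochberg adjustment over all 1307), which was also tested on simulated data. No member lacked a value on any array. The mRNA probes were named through RefSeq accessions of GRCm38.p6.

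Named members are the 10 brightest, the 5 with the largest and the 5 with the smallest mean SD within groups, the 10 with the smallest p, up to 5 with no overlap and the widest difference in each direction, and the 3 probes on each side of the threshold. The members and lists were chosen with earlier results of these data known. Other members named here were picked after their values were seen. Normexp used the median pixel signals with an offset of 50.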

Additional observations from a re-analysis of the deposited data

How the results depend on the processing

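Of 21 alternatives, 20 were planned, and scaling to the median of the 100 members was added after the data were seen. Members with an adjusted p under 0.05 (limma) numbered 28 with array weights (5 higher and 23 lower, against 6.5% and 10.6% of all tested), which were lowest for sham 3 at 0.294, and 0 to 17 with 1 array left out, the highest without sham 3. All 17 were among the 28. The 14 members with an unadjusted p under 0.05 (7.04% of all tested) became 7 with normexp (4.28%), 9 with quantile normalization (6.2%), 50 with array weights (35.3%), 32 in row 1 alone (21%), 8 when scaled to the members' own median (9.1%), and 1 without sham 1 (1.76%) to 37 without sham 3 (25.9%) on omission of single arrays. The split by direction among the members that passed changed with normexp. There 7 members were higher, against 1.38% of all tested, and 0 lower, against 2.91%. The 14 themselves were 3 higher and 11 lower, and they kept these signs with normexp. The 22 with no overlap (12% of all tested) became 12 with normexp (10.5%), 11 with quantile normalization (10.4%), 4 with no scaling (3.6%), 54 in row 1 alone (57.2%), 11 with the members' own median (12.4%) and 24 without sham 2 (15.7%) to 53 without sham 3 (48.7%) on omission of single arrays. As totals, 54 and 53 are near the share of all tested, but by direction they are not. In row 1 alone 40 members lay wholly below sham, against 26.3% of all tested, and 14 above, against 30.9%. Without sham 3 these were 40, against 23.2%, and 13, against 25.6%. The median difference over the members changed sign to 0.0235 with normexp, 0.0578 with quantile normalization and 0.0294 with the members' own median, the last a constant shift of every probe. The share of signal held by the members was 74.6% with normexp, whose offset adds to every probe. With the replicate block 20 members had an unadjusted p under 0.05 (9.87% of all tested) and 0 an adjusted one; deviations of samples with the same number correlated at -0.15, 0.46 and 0.182, so the numbers were not taken as pairs, and sham 1, sham 3 and tMCAO 1 correlated best with another number. Of 735 values of named members under the alternatives, 683 kept direction and side of the threshold and 26 newly passed it.

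Of these 735, 26 reversed. Under normexp ASCRMP000602 was at 0.0114 and ASCRMP001007 at 0.0963. Under quantile normalization, which sets values by rank, ASCRMP001374 was at -0.0408, ASCRMP001051 at -0.191, ASCRMP000602 at 0.177, ASCRMP001772 at 0.0378 and ASCRMP001007 at 0.179. With no scaling, which moves every difference by the same -0.263, ASCRMP000703 was at -0.125, ASCRMP001374 at -0.11, ASCRMP001180 at -0.0451, ASCRMP001685 at -0.0298, ASCRMP000762 at -0.017 and ASCRMP000723 at -0.257. Scaled to the median, ASCRMP000723 was at -0.0775, and scaled over probes detected on all 6 arrays ASCRMP001007 was at 0.0912. With the members' own median ASCRMP000602 was at 0.0301 and ASCRMP001007 at 0.142. In row 1 alone ASCRMP000703 was at -0.0613, and with array weights ASCRMP001051 at -0.319. Omitting single arrays gave ranges of -0.0543 to 0.396 for ASCRMP000703, -0.0528 to 0.398 for ASCRMP001374, -0.132 to 0.615 for ASCRMP001051, -0.115 to 0.0106 for ASCRMP001007 and -0.124 to 0.13 for ASCRMP000723. The cause was not tested.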
